A study of Mus musculus with 4 samples.

Results

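The BCL2 family of apoptosis regulators was followed in whole mouse islets at low and high glucose. The 10 members were chosen by name, with earlier results of these data known. They are the pro-survival genes *Bcl2*, *Bcl2l1* and *Mcl1*, the effector genes *Bax* and *Bak1*, and the BH3-only genes *Bid*, *Bad*, *Bbc3*, *Bcl2l11* and *Pmaip1*. They are 10 of 24012 gene symbols in the deposited expression table, and 16 distinct transcript entries out of 28047 carried one of these symbols. Where several entries shared a symbol, the one with the highest mean over the 4 libraries stood for the gene. Each library was made from total RNA of 100 islets of adult male C57bl6 mice, 3 months of age and wild type. The islets were pooled and kept overnight in 11 mM glucose, then held at 2.8 mM glucose for 2 hours. By the design text and the methods they then spent 12 hours at 2.8 mM glucose or at 16.8 mM glucose, with 2 libraries per concentration. In the sample labels the time of the low-glucose libraries is 2 hours instead. It is unsettled which of the times is right, so glucose and time in culture cannot be told apart if the labels hold. Nothing in the labels places the replicates in separate animals or cultures, so p-values measure only the spread between these libraries, which may be technical.

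Proteins of this family decide whether the mitochondrial outer membrane stays intact. BCL2, BCL-XL (the product of *Bcl2l1*) and MCL1 bind and hold back the effectors BAX and BAK, which otherwise assemble into pores and release cytochrome c. BH3-only proteins sense stress and either block the pro-survival proteins or engage the effectors directly, and in beta cells several of them have been studied as mediators of death under endoplasmic reticulum stress, cytokines and chronic high glucose.

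The deposited unit is RPKM, reads per kilobase scaled to library depth. The paper defines the unit by the exon model, but in this table the kilobases were read as those of a transcript's genomic span with introns included. Over the best annotated span, the reads of *Mcl1*, *Bax*, *Bid*, *Bbc3*, *Bak1*, *Bad* and *Pmaip1* came within 0.125 of a whole read in every library. Exon lengths were not tried in the same way. On the span reading, the value of a gene with long introns is low even where its reads are many. Library depth recovered from the values lay between 50800000 and 60710000 reads. Islet identity was plain in all libraries, with the 6 endocrine hormone genes summing to 23300 to 26600 RPKM at 2.8 mM and 43800 to 47600 RPKM at 16.8 mM glucose, and *Ins1*, *Ins2* and *Iapp* higher at 16.8 mM by limma. The 6 acinar markers summed to 95.2 and 274 RPKM at 2.8 mM and to 230 and 477 RPKM at 16.8 mM. Duct markers summed to 18.2 to 22.9 RPKM, leukocyte markers to 6.92 to 10 RPKM, stromal markers to 1.32 to 2.72 RPKM and endothelial markers to 0.992 to 1.92 RPKM. No marker was at 0 in every library. The duct sum was mostly *Krt7*, while *Krt19* had 1.27 and 3.96 RPKM at 2.8 mM and 4.31 and 7.56 RPKM at 16.8 mM. The leukocyte sum was mostly *Cd68*, at 6.76 to 9.74 RPKM, and the other leukocyte markers had at most 0.221 RPKM. By limma 1 marker of these other cells was called, the duct gene *Krt7*, which was lower at 16.8 mM. By voom on reconstructed reads, described below, all 6 acinar markers, *Krt19* of duct and *Pecam1* and *Cdh5* of endothelium were called higher at 16.8 mM and *Krt7* lower, and among the hormones *Sst* was called higher as well. The part of these other cells in the results below was not tested. In bulk RNA, fewer cells of a type and less RNA per cell cannot be told apart.

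At 16.8 mM glucose *Mcl1*, a pro-survival gene with a short-lived product, was 1.36-fold higher. *Bid*, which links death receptors to the mitochondrion, was 2.1-fold lower, *Bbc3* (PUMA), a BH3-only gene induced by p53 and by FOXO factors, was 1.44-fold lower and the effector *Bax* was 1.26-fold lower, each as a ratio of mean RPKM. The genes *Bcl2*, *Bcl2l1*, *Bak1* and *Bcl2l11* differed by at most 1.09-fold between the means. *Bad* and *Pmaip1* were 1.14-fold and 1.59-fold higher, and the entry that stood for each gene passed no test at the deposited scaling. The groups of 2 libraries did not overlap for 7 of the 10 members, 5 lower and 2 higher at 16.8 mM, beside 71.3% of all entries with a mean of at least 0.1 RPKM. For *Bcl2* and *Bcl2l11*, among the 5 lower, the sign of the fold change flips when each library is centred on its median.

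**Figure D1:**
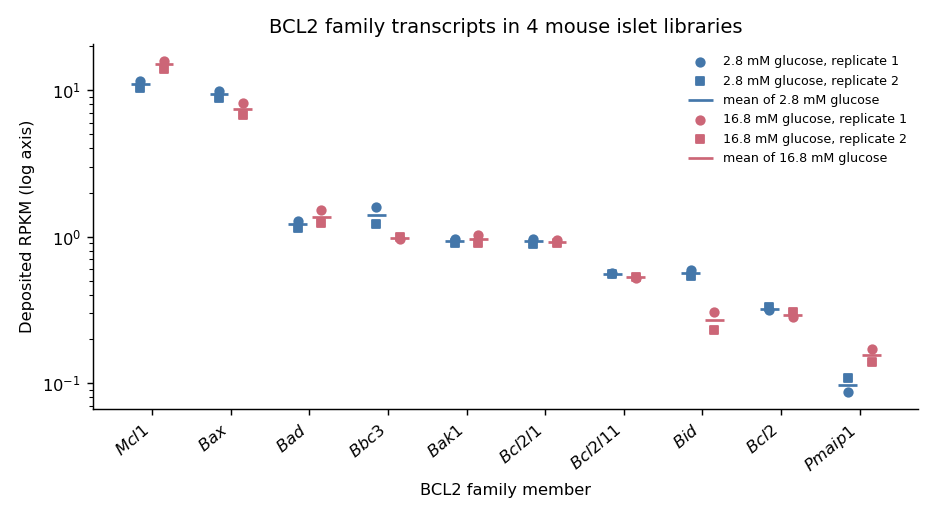
Deposited RPKM on a log axis of each BCL2 family member, ordered by its mean, with circles for replicate 1 and squares for replicate 2 of each glucose concentration and a bar for the group mean. *Mcl1* and *Bax* lie above all other members, the pair of 16.8 mM values is above the 2.8 mM pair for *Mcl1* and *Pmaip1*, and it is below for *Bax*, *Bbc3*, *Bid*, *Bcl2* and *Bcl2l11*, of which the last 2 change sign when each library is centred on its median.

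Promoter sequence is shown for *Mcl1*, *Bax*, *Bid* and *Bbc3*, the 4 of 10 members called by the read-based test described below, beside 41.6% of all entries. The sequences are from RefSeq on build GRCm38.p6, not the build of the expression table, and hold the 250 bases before an annotated start, 5′ to 3′ on the strand of the gene. Capitals mark matches, on either strand, to any of 4 letter patterns, which are GTAAACA for FOXO factors, TGATGNAAT for CHOP and ATF4, the NF-kB pattern of GGG, any 5 bases and CC, and CACGTG for E-box factors. For *Bbc3*, which has 3 annotated starts in the table, the start whose promoter holds a FOXO match is shown.
*Mcl1* promoter, chr3:95658471-95658720, plus strand: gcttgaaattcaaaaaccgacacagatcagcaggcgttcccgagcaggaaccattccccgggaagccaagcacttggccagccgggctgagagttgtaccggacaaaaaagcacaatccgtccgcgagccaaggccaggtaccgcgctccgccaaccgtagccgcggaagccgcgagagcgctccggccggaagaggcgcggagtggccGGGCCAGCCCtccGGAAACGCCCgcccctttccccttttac
*Bax* promoter, chr7:45466899-45467148, minus strand: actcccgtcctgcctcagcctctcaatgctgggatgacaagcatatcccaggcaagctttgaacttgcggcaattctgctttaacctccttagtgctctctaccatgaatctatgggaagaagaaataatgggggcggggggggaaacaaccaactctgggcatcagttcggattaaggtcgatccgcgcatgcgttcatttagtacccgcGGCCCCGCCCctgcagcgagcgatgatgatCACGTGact
*Bid* promoter, chr6:120916825-120917074, minus strand: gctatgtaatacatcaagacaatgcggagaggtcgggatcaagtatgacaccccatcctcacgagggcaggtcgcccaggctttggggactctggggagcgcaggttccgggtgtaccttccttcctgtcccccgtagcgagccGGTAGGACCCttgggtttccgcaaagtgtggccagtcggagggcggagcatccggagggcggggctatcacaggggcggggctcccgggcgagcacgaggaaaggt
*Bbc3* promoter, chr7:16310011-16310260, plus strand: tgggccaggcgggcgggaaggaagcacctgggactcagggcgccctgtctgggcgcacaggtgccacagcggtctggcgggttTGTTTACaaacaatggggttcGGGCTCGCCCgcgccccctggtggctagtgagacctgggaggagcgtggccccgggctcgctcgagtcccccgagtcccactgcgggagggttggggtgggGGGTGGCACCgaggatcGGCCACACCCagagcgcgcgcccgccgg

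Of 32851 promoters of this length, the FOXO letters were found in 3.17%, the CHOP and ATF4 letters in 0.816%, the E-box letters in 6.02% and the NF-kB letters in 45.8%. Among the 15 promoters found for 9 members, the FOXO letters stood in 1 of *Bbc3*, at bases -167 to -161 from the start, and in 1 of *Bcl2l11*, at -227 to -221. The E-box letters stood in the *Bax* promoter at -9 to -4 and in another *Bbc3* promoter at -64 to -59. None of these 15 promoters held the CHOP and ATF4 letters. The capitals in *Mcl1* and *Bid* all mark the common NF-kB pattern. A match describes letters in a window, and no match says only that these letters are not in it.

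*Mcl1* encodes the most labile pro-survival protein of the family and lies on chromosome 3 (chr3:95462643-95467099, plus strand, build mm9, as for all loci named here). Its RPKM was 11.6 and 10.4 in the 2.8 mM libraries and 16.0 and 14.0 in the 16.8 mM libraries, from 3031, 2419, 4318 and 3163 reads. Both 16.8 mM libraries lay above both 2.8 mM libraries, and the means were 11.0 ± 0.84 and 15.0 ± 1.4 RPKM (SD, n = 2). By limma on log2(RPKM + 0.5) over the 7867 entries averaging 1 RPKM or more, the log2 fold change of *Mcl1* was 0.42 with SE 0.13 and adjusted p = 0.042. With reads in place of RPKM (limma voom on the reconstructed reads of 19045 entries) it was 0.44 with SE 0.10 and adjusted p = 0.0027. *Mcl1* rose by both tests, but not with a minimum of 0.1 RPKM (limma adjusted p = 0.058). Over 24 fits its log2 fold change was between 0.33 and 0.53 and 18 of them called it. The limma call was lost without replicate 2 at 2.8 mM (adjusted p = 0.091), replicate 1 at 16.8 mM (0.21) or replicate 2 at 16.8 mM (0.074), and the voom call without replicate 2 at 2.8 mM (0.11).

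The other pro-survival members had near-equal levels at both concentrations. *Bcl2l1* lies on the minus strand at chr2:152593052-152657464, and its RPKM was 0.965 and 0.895 at 2.8 mM and 0.946 and 0.899 at 16.8 mM. The groups overlapped, and the voom log2 fold change was -0.01 with a 95% interval of -0.21 to 0.19 and adjusted p = 0.94. *Bcl2*, the founding member, spans chr1:108434755-108610851 on the minus strand. Its entry with the highest mean, a short one, had 0.313 and 0.329 RPKM at 2.8 mM and 0.281 and 0.305 RPKM at 16.8 mM. The 16.8 mM values were both lower, by less than the test could resolve, with a voom log2 fold change of -0.13, a 95% interval of -0.76 to 0.50 and adjusted p = 0.75. The entry for the whole *Bcl2* locus held 212 and 177 reads in the 2.8 mM libraries, against 227 and 145 at 16.8 mM, and here the groups overlapped. The span of the short *Bcl2* entry could not be settled beyond a whole multiple, so its read number, and with it the width of that interval, is uncertain.

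*Bax* encodes the effector that moves from the cytosol to the mitochondrion on activation, and lies on the minus strand at chr7:52717065-52722268. Its RPKM was 9.89 and 8.84 at 2.8 mM and 8.12 and 6.74 at 16.8 mM, from 3009, 2389, 2566 and 1781 reads. Both 16.8 mM libraries were lower than both 2.8 mM libraries, with means of 9.36 ± 0.75 and 7.43 ± 0.98 RPKM (SD, n = 2). The log2 fold change of *Bax* by limma was -0.32 with SE 0.13 and adjusted p = 0.10, past no threshold. On reads, voom gave -0.34 with SE 0.11 and adjusted p = 0.022. The lower level of *Bax* was thus called by 1 test and not by the other, and 7 of 24 fits called it. Without replicate 2 at 16.8 mM the log2 fold change of *Bax* was -0.19 by limma and -0.20 by voom (adjusted p = 0.50 and 0.21). The voom call was also lost without replicate 1 at 2.8 mM, at -0.25 (adjusted p = 0.37), and without replicate 2 at 2.8 mM, at -0.41 (adjusted p = 0.072).

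*Bak1* encodes the effector that sits in the mitochondrial membrane at rest, and lies on the minus strand at chr17:27156755-27165954. It had 0.966 and 0.908 RPKM at 2.8 mM and 1.02 and 0.902 RPKM at 16.8 mM. The groups overlapped, with a voom log2 fold change of 0.04, a 95% interval of -0.26 to 0.33 and adjusted p = 0.85. The whole *Bak1* locus lies inside *Ggnbp1* on the other strand. Since it is not stated whether strand was used in the counting, reads of *Ggnbp1* may be among those of *Bak1*. The entries of *Ggnbp1* had means of 0.632 and 0.332 RPKM and voom log2 fold changes of -0.12 and -0.39 (adjusted p = 0.38 and 0.014). Their part in the values of *Bak1* was not tested.

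*Bid* encodes the BH3-only protein that caspase 8 cleaves to join the death receptor route to mitochondria, and lies on the minus strand at chr6:120841948-120866871. The RPKM of *Bid* was 0.594 and 0.537 at 2.8 mM and 0.306 and 0.232 at 16.8 mM, from 823, 661, 440 and 279 reads. Every 16.8 mM value was under every 2.8 mM value, and the gap between the groups was wider than the spread within either. The means were 0.565 ± 0.04 and 0.269 ± 0.052 RPKM (SD, n = 2). This gene lies under the 1 RPKM minimum of the main test, and was tested with a minimum of 0.1 RPKM and on reads. *Bid* fell by both tests, by 1.07 on the log2 scale by voom with SE 0.15 and adjusted p = 4.2e-05. By limma with the 0.1 RPKM minimum its log2 fold change was -0.47 with SE 0.064 and adjusted p = 0.013, smaller since the 0.5 RPKM added before the log is about as large as the values. *Bid* was called in 11 of the 11 fits that tested it, with adjusted p between 5.3e-06 and 0.039. The 2.8 mM and 16.8 mM values of *Bcl2l13*, which shares 913 bases with *Bid* on the other strand, were 0.749 and 0.698 against 0.702 and 0.639 RPKM, with a voom log2 fold change of -0.11 and adjusted p = 0.41.

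*Bbc3* encodes PUMA, which binds all the pro-survival proteins, and lies on the plus strand at chr7:16894965-16903554. It had 1.599 and 1.227 RPKM at 2.8 mM and 0.969 and 0.988 RPKM at 16.8 mM, from 818, 558, 515 and 439 reads. The 16.8 mM libraries nearly coincided and both 2.8 mM libraries lay above them, replicate 1 by more. The means of *Bbc3* were 1.41 ± 0.26 and 0.978 ± 0.013 RPKM (SD, n = 2). By limma *Bbc3* had a log2 fold change of -0.36 with SE 0.11 and adjusted p = 0.036, and by voom one of -0.52 with SE 0.15 and adjusted p = 0.0092. It fell by both tests, but not by limma with a minimum of 0.1 RPKM (adjusted p = 0.064). Of 23 fits 12 called it and the call rests on replicate 1 at 2.8 mM, without which the log2 fold change was -0.22 by limma (adjusted p = 0.18) and -0.33 by voom (adjusted p = 0.38).

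*Bad* encodes a BH3-only protein that is kept inactive by phosphorylation under growth factor and glucose signals, and lies on the plus strand at chr19:7016351-7026388. Its RPKM was 1.27 and 1.14 at 2.8 mM and 1.51 and 1.24 at 16.8 mM, so that the groups overlapped. The log2 fold change of *Bad* was 0.13 by limma, with a 95% interval of -0.10 to 0.37 and adjusted p = 0.33, and 0.19 by voom with adjusted p = 0.28. Without replicate 1 at 16.8 mM it was 0.03 by limma and 0.04 by voom, and without replicate 2 at 16.8 mM 0.24 and 0.33. For this entry, only the alternative scalings of the libraries described further on called *Bad*. The other *Bad* entry, with a mean of 1.23 RPKM, had 0.17 by limma (adjusted p = 0.22) and 0.24 by voom (adjusted p = 0.18). With a block for the replicate number, voom called that other entry higher (adjusted p = 0.033). *Bad* shares 590 bases with *Gpr137* on the other strand, which had a mean of 4.26 RPKM against 1.29 RPKM for *Bad*, so reads of *Gpr137* may be among those of *Bad*.

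*Bcl2l11* encodes BIM, which engages both pro-survival proteins and effectors, and lies on the plus strand at chr2:127951774-127988283. The RPKM of *Bcl2l11* was 0.563 and 0.554 at 2.8 mM and 0.525 and 0.527 at 16.8 mM. The 16.8 mM values were both slightly lower, yet the log2 fold change by voom was -0.09 with a 95% interval of -0.54 to 0.37 and adjusted p = 0.77. Its other 2 entries gave -0.13 and -0.16 by voom, and none of the 3 entries was called.

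*Pmaip1* encodes NOXA, a BH3-only protein that binds MCL1 and promotes its degradation. It had the lowest RPKM of the family, 0.0861 and 0.108 at 2.8 mM and 0.171 and 0.139 at 16.8 mM. These rest on 35, 39, 72 and 49 reads, and the 16.8 mM pair was the higher one. The voom log2 fold change of *Pmaip1* was 0.68 with SE 0.30, a 95% interval of 0.05 to 1.32 and adjusted p = 0.080. A change in *Pmaip1* was thus not called at the deposited scaling.

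Counted over the family, the main limma test could take 4 members (*Mcl1*, *Bax*, *Bad* and *Bbc3*), and 2 of them were called, 1 higher and 1 lower, where 33.4% of all entries tested were called. With the minimum at 0.1 RPKM all 10 members were tested and 1 was called, *Bid*, beside 30.2% of all entries, 8.75% higher and 21.4% lower. On reads, 4 of 10 members were called, *Mcl1* higher and *Bax*, *Bid* and *Bbc3* lower, where 13.2% of all entries were higher and 28.3% lower. With 10 members, these counts are near enough to the background to be no result about the family. The median log2 fold change of the members by voom was -0.05, beside -0.12 over all entries tested.

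That shift of all entries bears on the directions. The median over entries tested by the main test was -0.11, and with each library centred on its median *Mcl1* had a log2 fold change of 0.51, *Bax* of -0.23, *Bbc3* of -0.28 and *Bad* of 0.22. *Mcl1* and *Bad* were then past the threshold (adjusted p = 0.0075 and 0.038, limma) and *Bax* and *Bbc3* were not (adjusted p = 0.065 for both). Quantile normalization called *Mcl1*, *Bad* and *Bax* (adjusted p = 0.013, 0.044 and 0.046), with *Bbc3* at adjusted p = 0.085. *Bid* stayed lower at a 0.1 RPKM minimum with median centring, by -0.39 with adjusted p = 0.0072. *Pmaip1* was called higher there, at 0.21 with adjusted p = 0.044. The signs of *Bcl2*, *Bcl2l1* and *Bcl2l11* flipped to 0.03, 0.07 and 0.03 under that centring. With quantile normalization at the same minimum they were -0.01, 0.07 and 0.03. The lower values of *Bcl2* and *Bcl2l11* thus depend on the scaling, and those of *Bcl2l1* overlapped already at the deposited one.

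**Figure D2:**
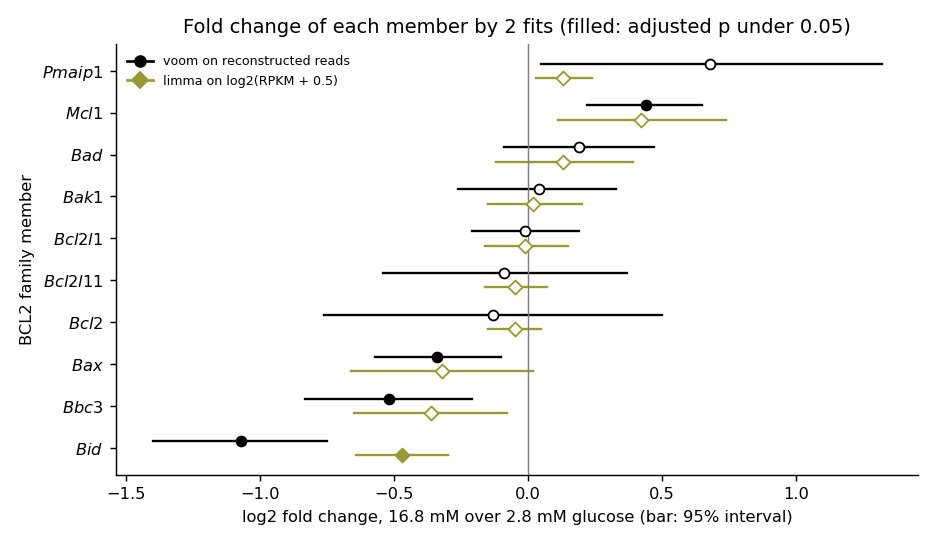
Log2 fold change at 16.8 mM over 2.8 mM glucose of each member with its 95% interval, by voom on reconstructed reads (black circles) and by limma on log2(RPKM + 0.5) with a mean of at least 0.1 RPKM (olive diamonds), filled where adjusted p is under 0.05. *Bid* is filled in both fits, *Mcl1*, *Bax* and *Bbc3* are filled by voom only, and the voom intervals of *Bcl2*, *Bcl2l1*, *Bcl2l11*, *Bak1* and *Bad* include 0.

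The order of the members' levels was taken on 2 scales, by genomic span and by exon. Per kilobase of genomic span, mean RPKM over the 4 libraries was 13.0 for *Mcl1*, 8.40 for *Bax*, 1.29 for *Bad*, 1.20 for *Bbc3*, 0.949 for *Bak1*, 0.926 for *Bcl2l1*, 0.542 for *Bcl2l11*, 0.417 for *Bid*, 0.307 for *Bcl2* and 0.126 for *Pmaip1*. On this scale *Mcl1* lay above *Bax* in every library, whereas the libraries of *Bad*, *Bbc3*, *Bak1* and *Bcl2l1* overlapped from each neighbour to the next, as did those of *Bcl2l11*, *Bid* and *Bcl2*. With the reads of each locus divided by its exon length in place of its span (an exon RPKM), and with the whole-locus entries of *Bcl2* and *Bcl2l11* in place of the shorter ones used so far, *Bax* led with 50.2, followed by *Bcl2l1* with 19.6, *Mcl1* with 16.6 and *Bad* with 8.94. The next were *Bbc3* with 5.77, *Bid* with 4.51, *Bak1* with 4.19 and *Bcl2l11* with 2.43. At the end of that order were *Bcl2* with 0.473 and *Pmaip1* with 0.331. On the exon scale *Bax* was first in all 4 libraries, from 40.3 to 59.2, and *Bcl2l1* and *Mcl1* overlapped, at 18.9 to 20.4 and 13.4 to 20.4. *Mcl1*, *Bad*, *Bak1* and *Bcl2l11* did not overlap with the next gene in that order, whereas *Bid* overlapped with both its neighbours and *Bcl2* with *Pmaip1*. *Bcl2* and *Pmaip1* were last on both scales, though with another *Bcl2* entry on each, since by span the whole-locus entry of *Bcl2* had a mean of 0.0193 RPKM and lay below *Pmaip1*. How many of the reads lie in introns was not tested, and any such reads are included in the exon scale. The span of *Bcl2l1*, on which its reads and exon value rest, could not be checked against whole reads.

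**Figure D3:**
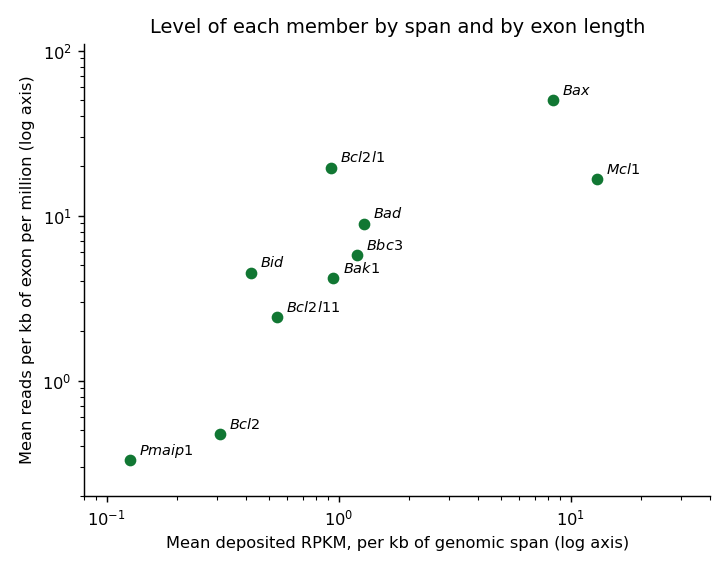
Mean level over the 4 libraries of each member, with deposited RPKM per kilobase of genomic span on the horizontal axis and reads per kilobase of exon, scaled to depth, on the vertical axis, both logarithmic, the latter from the whole-locus entries of *Bcl2* and *Bcl2l11*. *Mcl1* is farthest right at 13.0 RPKM and *Bax* is highest at an exon RPKM of 50.2, while *Bcl2l1* is below *Bad* and *Bbc3* by span and above them by exon.

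Ratios within a library do not depend on its scaling. *Mcl1* over *Bax* was 1.18 in both 2.8 mM libraries and 1.96 and 2.07 in the 16.8 mM libraries, as a ratio of RPKM per kilobase of genomic span. On the exon scale *Bax* lay above *Mcl1* in every library, so the size of these ratios depends on the length used, while their relative change between libraries does not. *Mcl1* over *Bbc3* was 7.27 and 8.51 at 2.8 mM and 16.5 and 14.1 at 16.8 mM. *Mcl1* thus gained on both pro-death genes in either 16.8 mM library. *Mcl1* over *Pmaip1*, the gene of its own antagonist, was 135 and 96.8 at 2.8 mM and 93.6 and 101 at 16.8 mM, and these overlapped. *Bcl2l1* over *Bid* was 1.62 and 1.67 at 2.8 mM and 3.09 and 3.88 at 16.8 mM. *Bax* over *Bak1* was 10.2 and 9.73 at 2.8 mM and 7.96 and 7.47 at 16.8 mM. The mean log2 RPKM of *Mcl1* and *Bcl2l1* minus that of *Bax* and *Bak1* was 0.12 and 0.11 at 2.8 mM and 0.43 and 0.52 at 16.8 mM, a difference of 0.37. Since *Bcl2l1* and *Bak1* had near-equal levels at both concentrations, that difference mostly restates the changes of *Mcl1* and *Bax*. No test is given, since an exact permutation of 2 against 2 libraries cannot reach a p below 0.333.

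**Figure D4:**
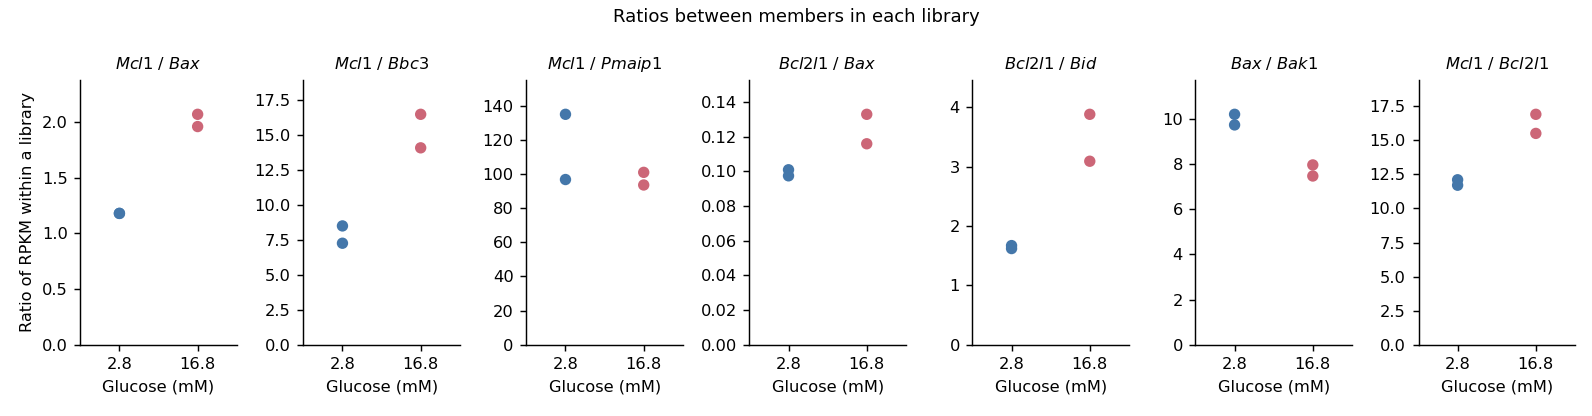
Ratios of the RPKM of 2 members within each library, 1 panel a ratio, with the 2.8 mM libraries in blue and the 16.8 mM libraries in red and each vertical axis starting at 0. The *Mcl1* over *Bax* ratio is 1.18 in both 2.8 mM libraries and 1.96 and 2.07 at 16.8 mM, and of the 7 ratios that of *Mcl1* over *Pmaip1* alone has overlapping groups. The ratios are not independent, since *Mcl1*, *Bax* and *Bcl2l1* each enter several of them. Among single entries averaging 0.1 RPKM or more, 71.3% had groups that did not overlap. The share among ratios of other gene pairs was not counted, so the number of separated ratios is no result about the family.

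Other genes of the pathway were taken from 6 lists with 66 genes, of which 33 passed the 1 RPKM minimum. By limma 3 were higher and 12 lower at 16.8 mM, with a median log2 fold change of -0.18 beside -0.11 over all entries and with 10.7% and 22.8% of all entries called in those directions. The library scaling moved this split, to 8 higher and 13 lower with quantile normalization or median centring.

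Among 11 other pro-death members and relatives, 3 were tested by limma and 2 called. *Bnip3*, a mitophagy receptor induced by hypoxia, had 3.94 and 6.85 RPKM at 2.8 mM and 17.6 and 13.4 RPKM at 16.8 mM and rose by 1.48 on the log2 scale (SE 0.24, adjusted p = 0.0052), and its paralog *Bnip3l* rose by 0.66 (adjusted p = 0.0038). *Becn1* did not differ beyond the spread, at 0.02 (adjusted p = 0.89). By voom 10 of the 11 were tested, with 2 called higher and 2 lower. The lower ones, both under the 1 RPKM minimum, were *Bmf* at -0.66 (adjusted p = 0.0036) and *Hrk* at -1.6 (adjusted p = 0.0083). *Bmf* was also called lower by limma with a minimum of 0.1 RPKM, at -0.23 (adjusted p = 0.02). Of the 6 other pro-survival members only *Bcl2l2* (BCL-W) was tested by the main limma fit. It had 14.9 and 13.4 RPKM at 2.8 mM and 13.9 and 12.9 RPKM at 16.8 mM and a log2 fold change of -0.07 (adjusted p = 0.66). By voom 4 of the 6 were tested and by limma with a minimum of 0.1 RPKM 5, and none was called. The near-identical *Bcl2a1* paralogs share reads and are uncertain.

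Of 10 transcription factors and regulators that act on BH3-only genes, 7 were tested, 1 was higher and 4 were lower. *Ddit3*, which encodes the stress factor CHOP, had 71.4 and 65.4 RPKM at 2.8 mM and 10.1 and 8.34 RPKM at 16.8 mM and fell by 2.83 on the log2 scale (adjusted p = 6.2e-05). *Trib3*, a pseudokinase induced by CHOP, fell by 1.96 and *Atf4* by 0.78. *Trp53*, the gene of p53, fell by 0.43 (adjusted p = 0.014), whereas the p53 target *Cdkn1a* rose by 0.54 (adjusted p = 0.016). *Jun* and *Mdm2* were not called by limma, at 0.37 and -0.21, and *Jun* was called higher by voom (adjusted p = 0.015).

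Of 16 partners at the outer membrane and modifiers, 13 were tested, none was higher and 6 were lower. They include the channel genes *Vdac1* at -0.79 and *Vdac3* at -0.64, the kinase gene *Pim3* at -0.67 and the membrane protein gene *Tmbim6* at -0.51 on the log2 scale. The rest were *Akt2* at -0.43 and *Bag1* at -0.37. By voom 16 were tested, with none called higher and 10 lower. Lower by voom but not by the main limma fit were *Akt1* at -0.26, *Pim1* at -0.49, *Huwe1* at -0.30 and *Gsk3b* at -0.32 (voom adjusted p = 0.032, 0.039, 0.012 and 0.0091). *Ywhaz*, a 14-3-3 protein gene, and *Vdac2* were not called by limma, at 0.18 and -0.17. Of 15 apoptosome genes, caspases and inhibitors, 6 were tested and *Htra2*, a mitochondrial protease gene, fell by 0.61 (adjusted p = 0.015). *Cycs* and *Endog* were not called by limma, at 0.31 and 0.10, and *Cycs* was called higher by voom (adjusted p = 0.02). Of 8 death receptor genes, 3 were tested and the adaptor gene *Fadd* fell by 0.34 (adjusted p = 0.026), with *Tnfrsf1a* and *Tradd* at -0.02 and -0.01. *Cflar*, under the 1 RPKM minimum, was called higher by voom, at 0.38 (adjusted p = 0.0057). By limma with a minimum of 0.1 RPKM *Cflar* was also called higher, at 0.25 (adjusted p = 0.046).

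**Figure D5:**
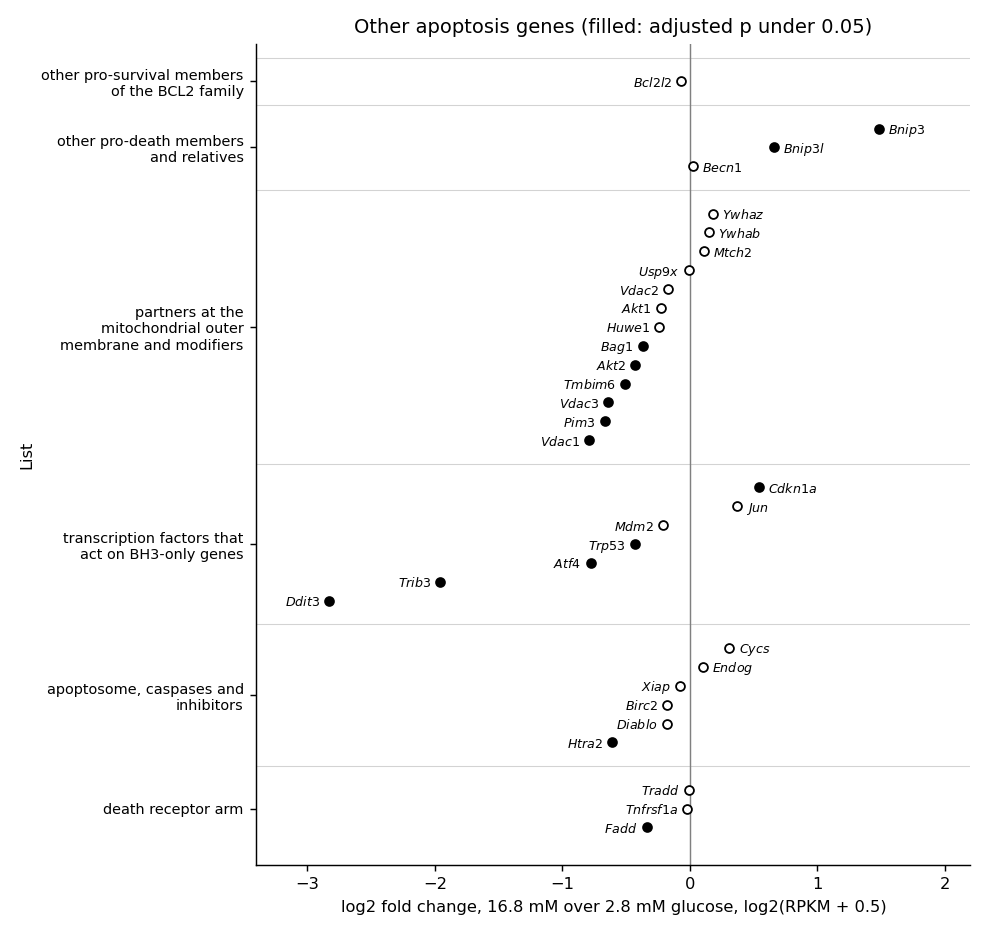
Change between 2.8 mM and 16.8 mM glucose (log2 fold change of RPKM + 0.5) of the 33 other apoptosis genes averaging 1 RPKM or more, 1 point a gene and grouped by list, filled where limma's adjusted p is under 0.05. The filled points are 3 genes above 0 (*Bnip3*, *Bnip3l* and *Cdkn1a*) and 12 below 0, of which *Ddit3* lies lowest at -2.83.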

How the data were processed

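The authors deposited 1 table of RPKM values, with a column for each of the 4 islet libraries. Per the labels, STAR, bedtools and DESeq were used on the mm9 genome, and strand use in the counting is not stated. Depth was chosen so that the RPKM of short RNAs under 60 reads best came to whole reads over genomic spans (97.6 to 98.1% within 0.05). Reads were then reconstructed for the 98.4% of distinct entries with an annotated span. For most entries other than the members, that span was not checked against whole reads. The spans of *Bcl2l1* and of the whole *Bcl2* locus could not be checked, their reads lying up to 0.23 and 0.41 from a whole read. With 2 libraries per group, the spread within a group is poorly known.

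The table holds no counts, so log2(RPKM + 0.5) was tested with limma 3.58.1 in R 4.3.3 (variance trend, Benjamini-Hochberg adjustment over all entries with a mean of at least 1 RPKM, called under 0.05). All 4 libraries entered, with no covariate. The voom fit used entries with a mean of at least 20 reads. Only the main limma fit was tried on simulated data, with changes larger than those of the members it took. That trial therefore says nothing about calls of changes as small as theirs, and its outcome is not given here. Loci are from GENCODE vM1. Other steps and figures used pandas 2.3.3, numpy 2.4.6 and matplotlib 3.10.9 under Python 3.11.15.

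Named genes were all members and, per list, at most 4 called with the largest change and at most 2 uncalled with the highest mean. Named beside these were *Bmf*, *Hrk*, *Cflar*, *Pim1* and *Gsk3b*, called by voom under the 1 RPKM minimum. Also named were *Akt1* and *Huwe1*, called by voom and not by the main limma fit, and *Trp53*, *Akt2* and *Bag1*, further genes called by limma. Other list genes under that minimum that voom called were not named. The members and lists were chosen with earlier results of these data known. Alternatives changed the trend, scaling, minimum, pseudocount, threshold, unit, block and libraries. The fits that join the 0.1 RPKM minimum to a block or another scaling, voom without each library, and the balance with 0.5 RPKM added were chosen after seeing the data.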

Additional observations from a re-analysis of the deposited data

How the results depend on the processing

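The log2 fold changes of *Mcl1*, *Bax*, *Bid*, *Bbc3*, *Bad* and *Pmaip1* kept their direction in every fit. The number of members called, 2 in the main test, was 1 with limma without the trend, with no minimum, with a minimum of 0.1 RPKM and with at least 1 RPKM in every library. It was 4 by voom with or without the block, and 0 at an adjusted p under 0.01, where limma called 9 of the other pathway genes. Leaving out 1 library gave between 1 and 4 members over both tests. Over single members and alternatives, 99 values were counted as unchanged and 21 passed the threshold where the main test gave no call. Of these 21, 11 were of *Bid*, which the main test did not take. A further 17 no longer passed it and 36 moved by more than 1 SD without a call. For the 4 members that the main test took, an unchanged fit kept its sign and side of the threshold, whatever its size. The 1 SD limit was used for fits of the other 6.

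Of the pathway genes tested, 15 of 33 were called in the main test and 26 of 63 by voom, beside 33.4% and 41.6% of all entries. At a 0.1 RPKM minimum 60 were tested. There 23 were called with the replicate block, 25 with quantile normalization and 24 with median centring, and the share of all entries called in those fits is not given here. The balance of *Mcl1* and *Bcl2l1* against *Bax* and *Bak1*, 0.37, ranged from 0.32 to 0.41 without 1 library and was 0.35 with 0.5 RPKM added. Libraries with the same number share only that number, and their deviations from the group means correlated at 0.31. With the replicate block limma called 2 members, *Mcl1* and *Bax* (adjusted p = 0.016 and 0.026), with *Bbc3* at 0.051, 51.7% of all entries and 21 pathway genes; voom with the replicate block called 35 pathway genes and 56.1% of all entries. The causes were not tested. The fewest reads, 35 to 72 a library, were behind *Pmaip1*, and what depth limits was not tested.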
